A study of Mus musculus with 6 samples.

Results

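The selenoproteins described here are 10 genes of mouse liver: Selenoh, Dio1, Gpx1, Gpx4, Selenop, Selenow, Selenof, Txnrd1, Txnrd2 and Sephs2. Their probe sets were chosen by gene symbol in the platform annotation, 14 of the 11811 in the deposited table. The gene list itself was drawn up with the difference between knockout and wild-type signals already known, so the genes were selected on the same comparison that is given below. Their differences are therefore a description, and whether a gene passed the threshold is stated without a p-value.

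The study measured total liver RNA with 1 Affymetrix array per sample, in 3 samples labelled ATP7B KO (KO903, KO904 and KO905) and 3 labelled wild type (WT4, WT5 and WT6). Atp7b encodes the copper-exporting ATPase that is defective in Wilson disease, and the series title places the samples at an early stage of copper accumulation. No treatment, age, sex, strain or diet is given for either group in the labels, which call the knockout a previously described mouse and do not state how its allele was made. Whether every sample came from its own mouse is not spelled out, so errors here are the spread between samples.

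Selenoproteins carry selenocysteine, a selenium-containing amino acid inserted at a UGA codon that would otherwise end translation. Insertion needs a hairpin (the SECIS element) in the 3' untranslated part of the messenger, the proteins that bind it, and a dedicated tRNA loaded with help of selenophosphate. Most known selenoproteins are redox enzymes, and the liver both uses them and exports selenium to other organs as the plasma protein encoded by Selenop.

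Signals were comparable across arrays, with array medians of 330.2 to 342.4. Correlations of log2 signals were at least 0.974 within a group and at most 0.970 between groups. The targeted gene was read by 1 probe set, at 240.5, 231.8 and 184.9 in the knockout and 259, 299.7 and 241 in wild type (log2 difference -0.27 ± 0.16 SE; limma adjusted p = 0.407). Whether that probe set reads the altered part of Atp7b is not known here, so it does not check the genotype. Hepatocyte markers were present, and 0 of 6 were called in limma. Of these 6, 2 had a log2 difference above 0, and Tat lay furthest from 0 at -0.42 ± 0.12 (SE, limma adjusted p = 0.0803). Of the tested markers of other cell types, the only call was Alas2, an erythroid gene of heme synthesis (KO903 894, KO904 834.9 and KO905 714 against WT4 377.2, WT5 417.7 and WT6 398.8). Top2a, the only proliferation marker tested, was not called, with a log2 difference of 0.68 ± 0.22 (SE, limma adjusted p = 0.116). Kupffer cell markers were not called, but all 6 tested had a log2 difference above 0 on their brightest probe sets, as had 3727 of all 6604 genes. Dimmer Csf1r probe sets gave -0.31 ± 0.25 and 0.17 ± 0.15 (SE). Also above 0 were 4 of 5 endothelial, 2 of 3 stellate and 2 of 2 lymphocyte markers. The summed Kupffer marker signal was 4700 to 6417 in the knockout and 3469 to 4847 in wild type. The part of these cell types in the results was not tested.

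In these livers 2 selenoprotein genes stood higher without Atp7b and the others did not pass. Selenoh, encoding a nuclear redox protein, was 4.31-fold higher. Dio1, encoding the deiodinase that activates thyroid hormone, was 2.15-fold higher. Of the 10 genes, each read from its brightest probe set, 2 were called higher and 0 lower at an adjusted p of 0.05 in limma over all probe sets. Over all 6604 genes the share called was 3.94% (2.14% higher and 1.8% lower). A fold above 1.5 was reached by 2 of the 10 genes and by 4.78% of all genes, and no gene of the list was lower by that much. The median log2 difference was 0.07 over the 10 genes and 0.03 over all genes. Since the comparison chose the list, nothing is read from these counts.

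**Figure D1:**
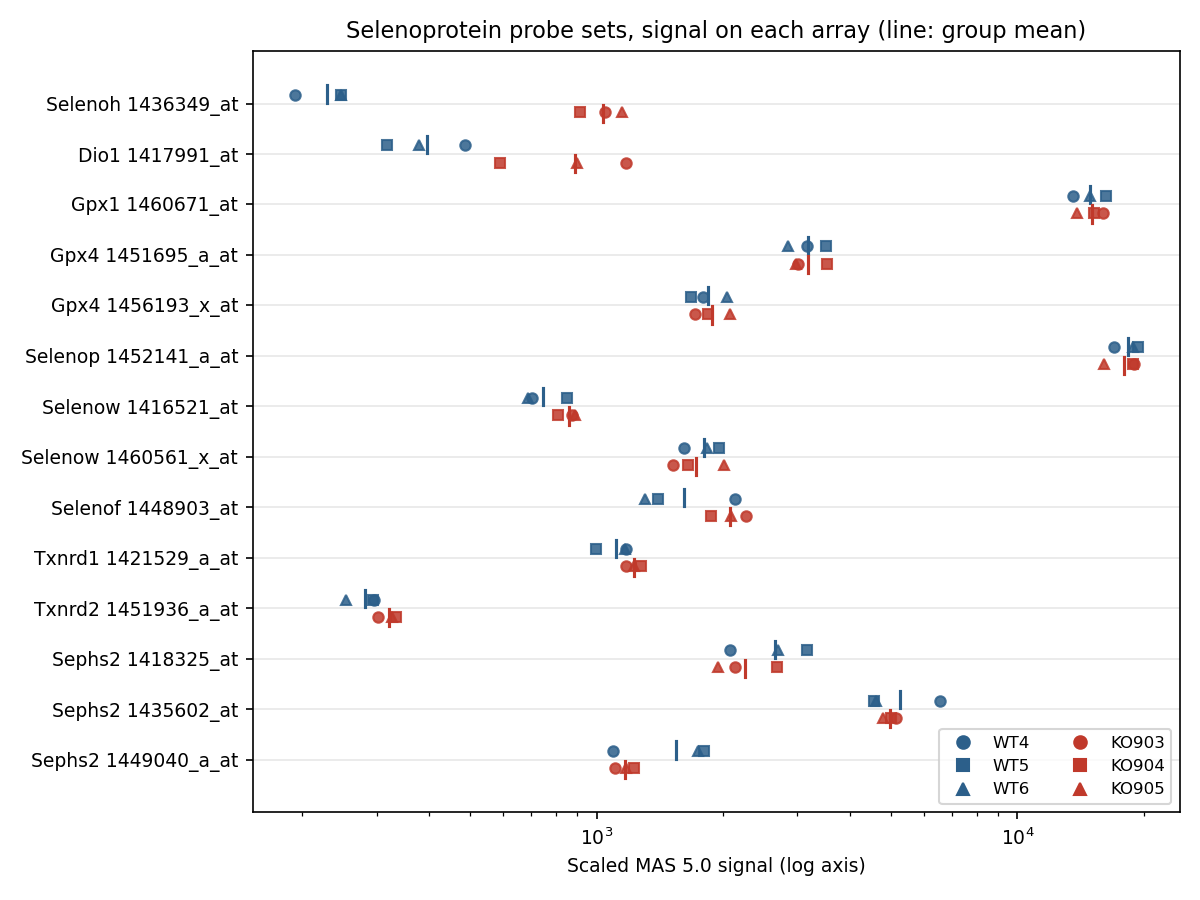
Scaled MAS 5.0 signal (log axis) of the 14 probe sets of the 10 genes on each array, wild type in blue and knockout in red, with the group mean (n = 3) as a vertical line. Selenoh and Dio1 have separated groups, while most other probe sets have knockout and wild-type points on top of each other.

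The sequences just upstream of the start are shown for Selenoh and Dio1, since these 2 genes carry the difference, and for Txnrd1 and Txnrd2, since a searched motif lay there. They are from RefSeq on mouse build GRCm38.p6, each 250 bases long and ending at the base before the annotated start. Capitals mark matches to the core of the metal response element, bound by the zinc-sensing factor MTF1 (TGCGCNC or TGCACNC), or of the antioxidant response element, bound by NRF2 (TGACNNNGC), on either strand. The regions are chr2:84670709-84670958 (minus strand) for Selenoh, chr4:107307169-107307418 (minus strand) for Dio1, chr10:82858956-82859205 (plus strand) for Txnrd1 and chr16:18426167-18426416 (plus strand) for Txnrd2.
Selenoh: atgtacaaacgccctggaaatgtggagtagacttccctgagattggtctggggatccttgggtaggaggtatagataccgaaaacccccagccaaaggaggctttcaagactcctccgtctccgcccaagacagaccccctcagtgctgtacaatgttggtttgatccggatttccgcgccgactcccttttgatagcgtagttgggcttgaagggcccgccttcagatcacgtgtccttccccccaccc
Dio1: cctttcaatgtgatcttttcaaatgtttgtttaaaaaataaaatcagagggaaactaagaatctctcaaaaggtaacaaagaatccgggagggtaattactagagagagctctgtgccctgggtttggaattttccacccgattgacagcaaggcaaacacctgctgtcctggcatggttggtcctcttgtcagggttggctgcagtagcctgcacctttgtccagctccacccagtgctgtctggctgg
Txnrd1: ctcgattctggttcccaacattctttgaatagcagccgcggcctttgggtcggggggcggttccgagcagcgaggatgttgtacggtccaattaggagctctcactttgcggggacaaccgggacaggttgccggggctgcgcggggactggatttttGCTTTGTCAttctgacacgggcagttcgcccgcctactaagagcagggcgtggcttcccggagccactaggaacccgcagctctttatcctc
Txnrd2: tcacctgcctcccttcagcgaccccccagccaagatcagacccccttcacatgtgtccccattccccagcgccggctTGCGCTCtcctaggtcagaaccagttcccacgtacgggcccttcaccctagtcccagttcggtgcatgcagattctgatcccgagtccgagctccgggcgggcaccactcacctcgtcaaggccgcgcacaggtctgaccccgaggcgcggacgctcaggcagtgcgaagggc

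All 10 genes had at least 1 promoter window of 300 bases (250 before and 50 after a start), 17 windows in all. No match to either core was found in the windows of Selenoh and Dio1. The antioxidant core matched 1 of the 17 windows, that of Txnrd1 at positions -92 to -84 from the start, on the opposite strand; the other 2 windows of Txnrd1 had no match. The metal core matched 2 windows, in Txnrd2 at -173 to -167 and in Selenow just after the start, where matches on both strands overlap at positions 6 to 12 and 7 to 13. Among all 32851 windows of the table, 25.7% held the metal core and 12.4% the antioxidant core. Among the 7043 windows of tested genes, the shares were 34.8% and 14.1%. These are letter matches in a short window and say nothing of binding.

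Selenoh, a small thioredoxin-fold protein of the nucleus, had signals of 1049.6 in KO903, 910.9 in KO904 and 1147.1 in KO905, against 191.8 in WT4, 246.5 in WT5 and 247.5 in WT6. Every knockout value was above every wild-type value, and the spread within each group was small (SD 119 around 1036 in the knockout and 31.9 around 229 in wild type, n = 3 each). The log2 difference was 2.11 ± 0.15 (SE), rank 3 among 6604 genes ordered from the largest increase. It lay between 1.99 and 2.19 when any 1 sample was left out, and the gene passed the threshold each time. A pseudocount of 64 in place of 16 lowered it to 1.91. The gene was read by 1 probe set. In bulk liver RNA, a change in the cells present and a change in RNA per cell cannot be told apart.

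The 5 genes whose profile over the 6 arrays lay nearest to that of Selenoh were H1f2, Cenpq, Pttg1, Mt2 and Mad2l1. Likeness was measured as the root mean square distance of log2 signals, each gene centred on its own mean. H1f2, a linker histone gene, was at a distance of 0.17 log2 units and Cenpq, a centromere protein gene, at 0.20. Pttg1 (securin), the metallothionein gene Mt2 and the spindle checkpoint gene Mad2l1 were at 0.34, 0.35 and 0.37. In each of these 6 genes the groups were apart, and a distance of this kind is small mainly for genes with a similar step between the groups.

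**Figure D2:**
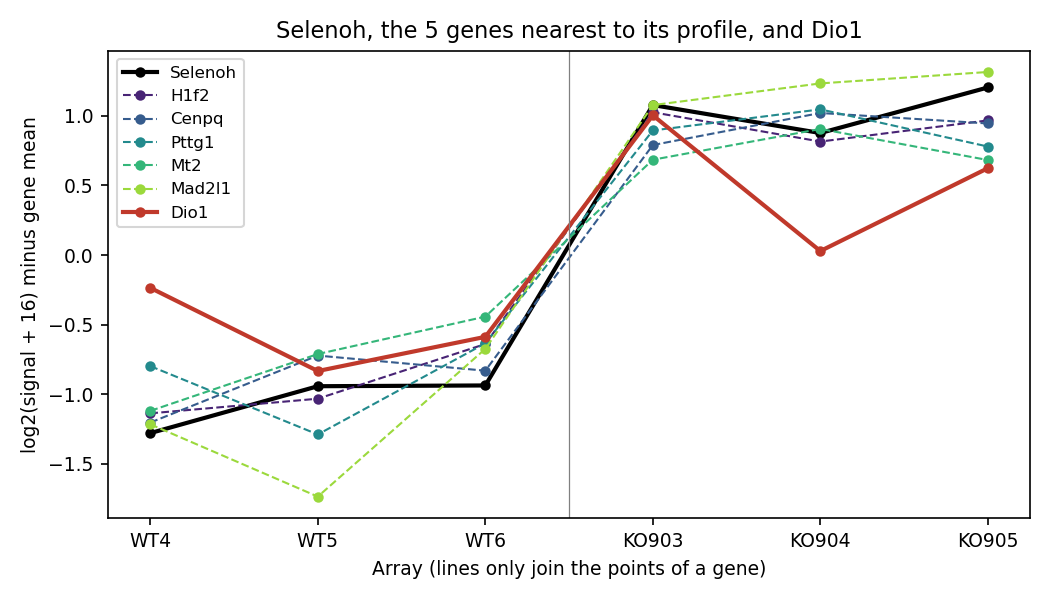
Log2(signal + 16) minus the gene's mean over the 6 arrays, for Selenoh (black), the 5 genes nearest to it (dashed) and Dio1 (red). The nearest genes step up between wild type and knockout by a similar amount, whereas Dio1 in KO904 lies near its own mean.

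Dio1 encodes type I iodothyronine deiodinase, which converts thyroxine to the active hormone triiodothyronine in liver. Its signals were 1173.9 in KO903, 589.1 in KO904 and 898.4 in KO905, against 487.7 in WT4, 316.8 in WT5 and 378.6 in WT6. The groups did not overlap, but the lowest knockout sample (KO904) lay close to the highest wild-type sample (WT4). Within the knockout the highest value was 1.99 times the lowest, the widest ratio in either group among the 14 probe sets. The means were 887 ± 293 and 394 ± 86.5 (SD, n = 3 each), a log2 difference of 1.11 ± 0.23 (SE). It stood at rank 25 of 6604. Without KO903, KO905 or WT6 the gene no longer passed the threshold, with log2 differences of 0.88, 1.07 and 1.09; the count of the 10 genes called was then 1, Selenoh alone. Without KO904 the difference was 1.37. Without WT5 it was 0.96, and the gene passed only very narrowly.

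**Figure D3:**
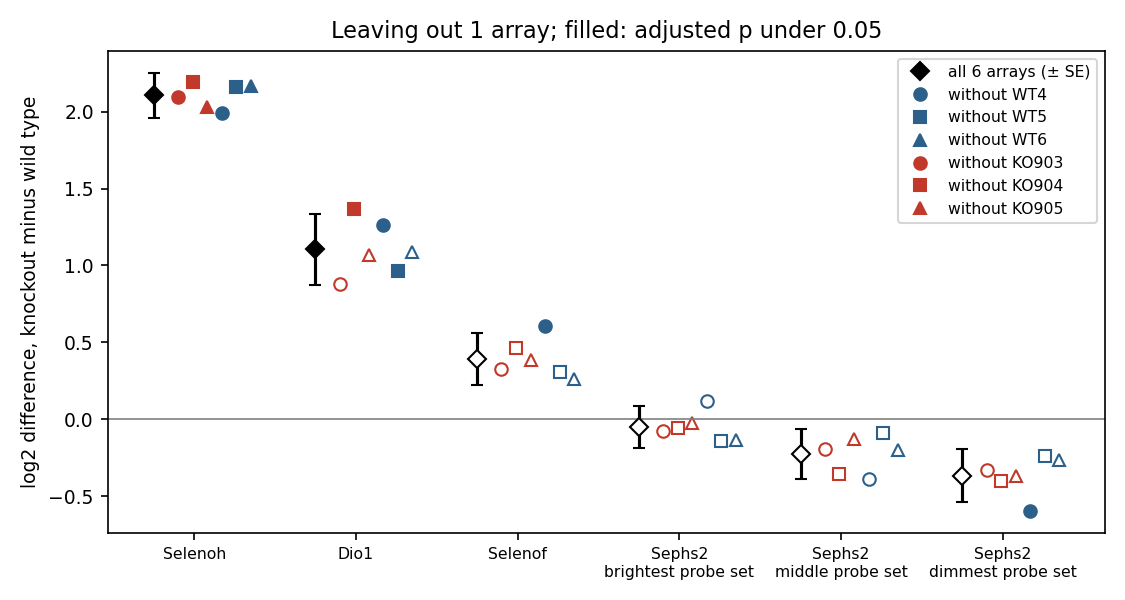
Log2 difference (knockout minus wild type) of 6 probe sets with all arrays (diamond, ± SE) and with 1 array left out (circles, squares and triangles); filled symbols passed an adjusted p of 0.05. Selenoh stays near 2.11, Dio1 loses its call without KO903, KO905 or WT6, and Selenof and the dimmest Sephs2 probe set gain one without WT4.

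Neither glutathione peroxidase gene passed the threshold. Gpx1, the abundant cytosolic enzyme that reduces hydrogen peroxide, had signals of 15936, 15240 and 13825 in KO903, KO904 and KO905 and 13566, 16236 and 14877 in WT4, WT5 and WT6. The knockout values lay inside the wild-type range, and the log2 difference was 0.01 ± 0.10 (SE). Red cells also hold much Gpx1; the erythroid marker Alas2 was higher in all 3 knockout samples (mean 814 against 398), and its part in the Gpx1 signal was not tested. Gpx4, which reduces lipid hydroperoxides in membranes, was read by 2 probe sets. The knockout mean on the brighter one was 3173 ± 303 and the wild-type mean 3173 ± 332 (SD, n = 3 each), a log2 difference of 0.00 ± 0.12 (SE). The other gave 0.03 ± 0.12 (SE), and its suffix (x) marks probes that other sequences may share.

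Neither thioredoxin reductase gene passed either. Txnrd1, the cytosolic enzyme that keeps thioredoxin reduced, had signals of 1172.7, 1273 and 1225.9 in the knockout and 1176.1, 996.2 and 1167.7 in wild type. KO903 lay just below WT4, so the groups overlapped, and the log2 difference was 0.14 ± 0.11 (SE). Txnrd2, its mitochondrial counterpart, had 302, 334.4 and 326.7 in the knockout and 295.5, 294.8 and 253.1 in wild type. These groups did not overlap, although KO903 exceeded WT4 only narrowly, and the log2 difference of 0.18 ± 0.13 (SE) did not pass. Groups without overlap occurred in 3 of the 10 genes, against 24.1% of all 6604 genes.

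Selenop encodes the plasma protein through which hepatocytes supply selenium to other tissues. Its signals were 18879, 18780 and 16046 in KO903, KO904 and KO905 and 16954, 19304 and 18797 in WT4, WT5 and WT6. KO905 was the lowest sample, the other knockout values lay within the wild-type range, and the log2 difference was -0.04 ± 0.10 (SE). Selenow, a small thioredoxin-fold protein, was read by 2 probe sets whose differences had opposite signs. The brighter (suffix x) gave -0.06 ± 0.13 (SE) and the other 0.20 ± 0.13 (SE), neither called, with overlapping groups in both.

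Selenof encodes a protein of the endoplasmic reticulum that partners the glucosyltransferase checking glycoprotein folding. Its signals were 2266.6 in KO903, 1872.2 in KO904 and 2084.7 in KO905, against 2126.9 in WT4, 1399.5 in WT5 and 1303 in WT6. WT4 lay among the knockout samples, while WT5 and WT6 were below all of them. The log2 difference was 0.39 ± 0.17 (SE) and did not pass; without WT4 it was 0.61 and passed.

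Sephs2 makes selenophosphate, the selenium donor for selenocysteine, and is itself a selenoprotein. Its 3 probe sets did not move together. The brightest gave 5159.9, 5006.3 and 4793 in the knockout and 6562.4, 4558.8 and 4620.3 in WT4, WT5 and WT6 (log2 difference -0.05 ± 0.14 SE). Here WT4 was the highest of all samples. The dimmest gave 1106.6, 1225.3 and 1172.7 in the knockout and 1092.7, 1804.3 and 1738.4 in WT4, WT5 and WT6. On this one WT4 was the lowest, next to the knockout samples, and WT5 and WT6 stood well above. The log2 difference was -0.37 ± 0.17 (SE), not called, and -0.59 without WT4, called. The middle one had the same order in wild type (2078.4, 3169.2 and 2698.7), with 2127.7, 2682 and 1944.5 in the knockout, and a log2 difference of -0.23 ± 0.16 (SE), not called. Without WT4 the 3 differences were 0.12 on the brightest, -0.39 on the middle and -0.59 on the dimmest probe set. Which transcript parts the probe sets read was not examined, so no direction is given for Sephs2 as a gene.

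**Figure D4:**
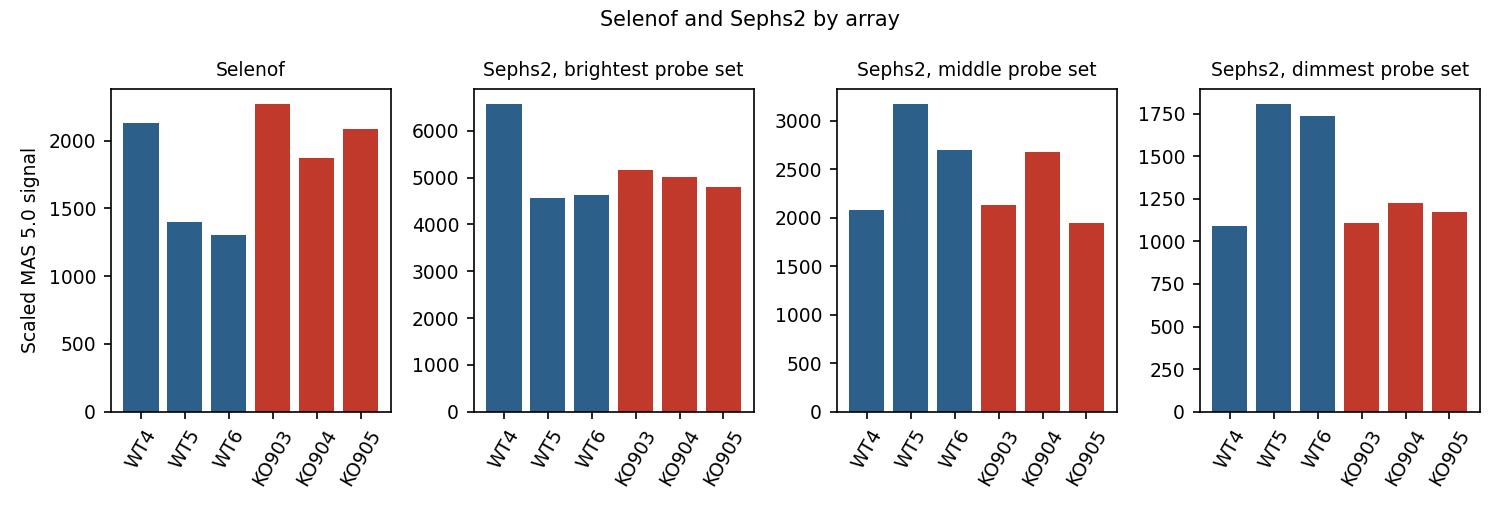
Scaled MAS 5.0 signal of Selenof and the 3 Sephs2 probe sets on each array (bars start at 0; wild type blue, knockout red; 1 value per bar). WT4 departs from WT5 and WT6 in each panel: up for Selenof and the brightest Sephs2 probe set, down for the other 2.

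No gene of the 4 related lists was called, where the share over all 6604 genes was 3.94%. These lists too were drawn up with earlier results of these data known, and the genes named have the smallest p of each. Their p-values are therefore a description. Of 14 further selenoproteins 4 were tested, all with lower mean log2 signals in the knockout (-0.23 to -0.13, median -0.18). Of all 6604 genes, 2877 had a log2 difference below 0. On the brightest probe sets, Selenot and Selenos, both of the endoplasmic reticulum, were the nearest to the threshold. Their log2 differences were -0.23 ± 0.12 and -0.21 ± 0.11 (SE, limma adjusted p = 0.355 and 0.358). Dimmer Selenos probe sets gave -0.29 ± 0.13 and -0.12 ± 0.19 (SE, limma adjusted p = 0.269 and 0.802). Among 5 tested genes of selenocysteine insertion, Ncl, a nucleolar protein that also binds SECIS elements, had a log2 difference of -0.32 ± 0.10 (SE, limma adjusted p = 0.127). A dimmer tested Ncl probe set gave -0.10 ± 0.14 (SE, limma adjusted p = 0.777), with overlapping groups. Secisbp2l, a relative of the SECIS binding protein, had -0.49 ± 0.16 (SE, limma adjusted p = 0.13). The dimmer Secisbp2l probe set gave -0.27 ± 0.14 (SE, limma adjusted p = 0.335). Of 3 tested genes of selenium handling, Scly, the lyase that recovers selenium from selenocysteine, had 0.20 ± 0.13 (SE; limma adjusted p = 0.474) and Selenbp1, a selenium-binding protein, -0.04 ± 0.12 (SE; adjusted p = 0.902).

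Among 7 tested selenium-free relatives and substrates, Gsr, which regenerates glutathione for the glutathione peroxidases, came closest. Its signals were above the wild-type range in all 3 knockout samples, with means going from 995 ± 163 to 1455 ± 155 (SD, n = 3 each; log2 0.55 ± 0.14 SE), and it missed the threshold (limma adjusted p = 0.0533). A second Gsr probe set gave 0.51 ± 0.17 (SE; limma adjusted p = 0.133). Txnip, the thioredoxin-binding protein, had a log2 difference of -0.47 ± 0.25 (SE; limma adjusted p = 0.352), with WT6 highest. With each gene read from its brightest tested probe set, limma called 0 of these 19 genes. An unadjusted limma p under 0.05 was reached by 3 of them (Ncl, Secisbp2l and Gsr). The share of all genes below that cut is not given here, so nothing is read from this count.

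**Figure D5:**
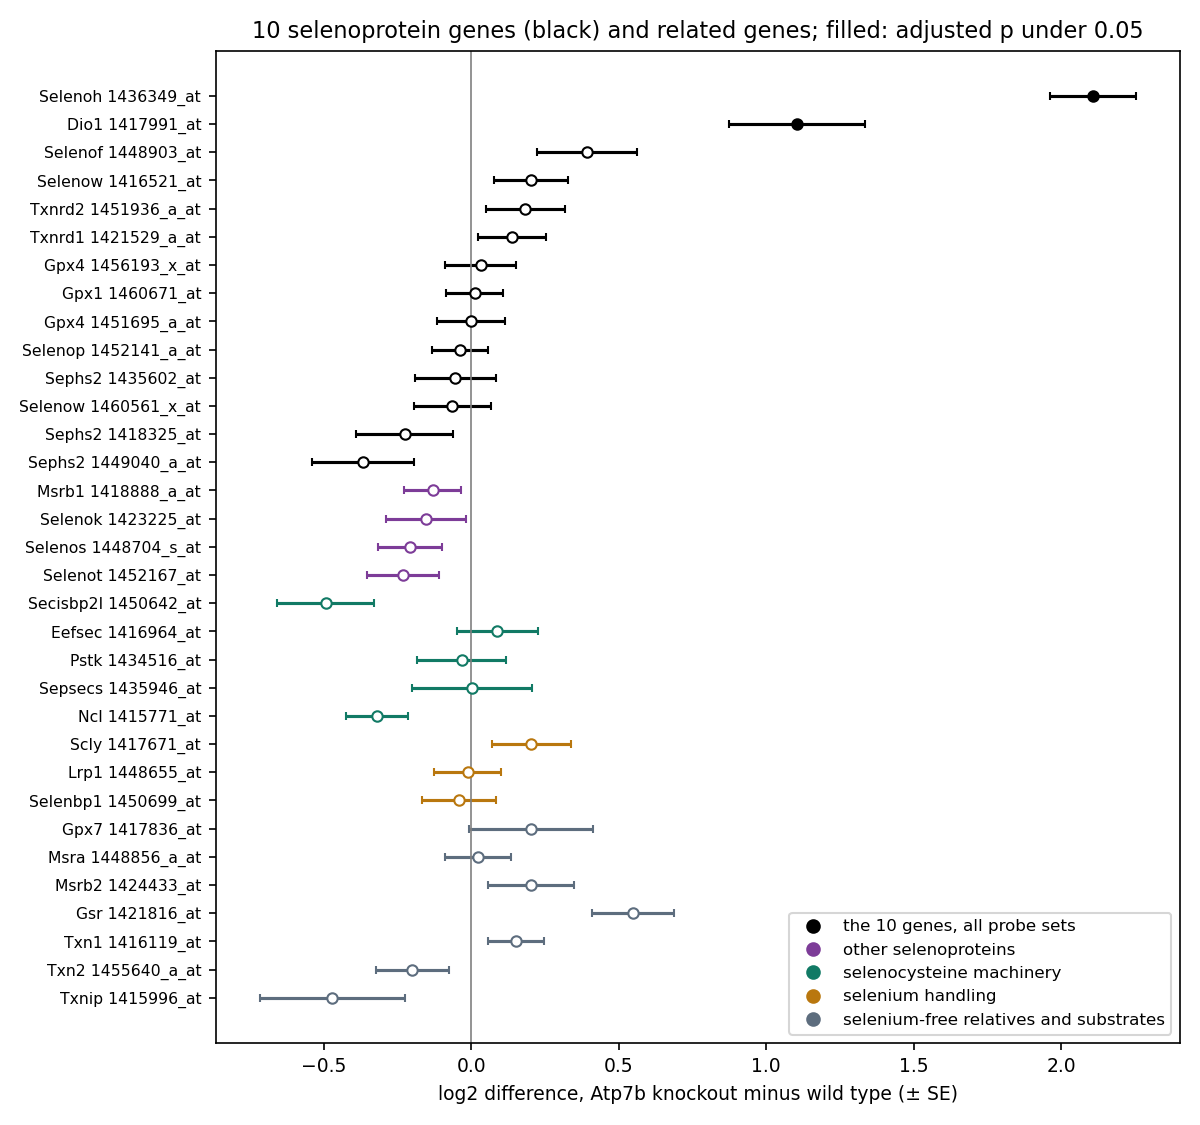
Log2 difference, knockout minus wild type (± SE, 3 arrays per group), for the 14 probe sets of the 10 genes (black) and the brightest tested probe set of 19 related genes in 4 lists (colours); filled symbols passed an adjusted p of 0.05. Only Selenoh (2.11) and Dio1 (1.11) are filled, and Gsr is the highest of the related genes at 0.55.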

How the data were processed

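Total RNA of 6 mouse liver samples (3 labelled knockout, 3 wild type) was extracted with TRIzol and RNeasy, labelled with an Enzo kit and hybridised to 1 array each, per the labels' protocols. The authors deposited linear intensity values: MAS 5.0 signals, scaled per array to a target average of 350, per the labels. For the 11811 probe sets of the table, the rule of choice is not stated. Neither detection calls nor batches entered, and precision is set by the few arrays.

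Sample titles gave the groups; sample numbers do not match between groups, so nothing was paired. Control probe sets (33) and those with a mean signal under 100 (1158) were left out, which left 10620. Log2(signal + 16) was fitted with limma 3.58.1 in R 4.3.3 (lmFit, eBayes with intensity trend; moderated SE), with Benjamini-Hochberg adjustment over all genes' probe sets and a threshold of 0.05. Changes of low signals are understated on this scale. A gene is represented by its brightest tested probe set (6604 genes). Symbols came from the platform annotation, checked against a RefSeq table of GRCm38.p6 (0 changed). The fit was tested on simulated data, with independent normal noise and 200 of 10620 probe sets changed in each of 10 runs. It recovered 14.2% of changes of 0.5 log2 units, 73.3% of changes of 1 and 97.0% of changes of 2. Of its calls in these simulations, 3.99% were false, a share that need not hold for the real arrays. A gene that did not pass may therefore still differ by 0.5 log2 units, and changes of 1 log2 unit can also be missed.

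The genes and lists were chosen with earlier results of these data known. Named besides the 10 genes were Atp7b, the 2 genes of each other list with the smallest p (none was called), and the 5 nearest to Selenoh. Probe sets with several symbols, as for Rpl30 and Eif4a3, were not named. Alternatives were quantile normalization, median centring, a pseudocount of 1 or 64, no filter or a minimum of 200, eBayes without trend or robust, array weights, the mean over probe sets, a threshold of 0.10, and leaving out each sample. Figures were drawn with matplotlib 3.10.9 in Python 3.11.15.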

Additional observations from a re-analysis of the deposited data

How the results depend on the processing

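Selenoh passed the threshold under all 16 refitted alternatives (log2 difference 1.91 to 2.19) and Dio1 under 13 of 16 (0.88 to 1.37). The number of the 10 genes called higher was 1 to 3 with 1 sample left out. It was lowest without KO903, KO905 or WT6 and highest without WT4, where Selenof was added. Read from its brightest probe set or the mean over probe sets, no gene of the 10 was called lower under any alternative. The dimmest Sephs2 probe set was called lower without WT4 (log2 difference -0.59). The differences of Gpx1, Gpx4, Selenop, Selenow and Sephs2 changed sign between alternatives (Sephs2 to 0.12 without WT4), and none of these was called on its brightest probe set. In the selenium-free relatives and substrates the count was 1 at a minimum signal of 200, with robust eBayes, array weights, the mean over probe sets or a threshold of 0.10 (Gsr), and 0 to 2 with 1 sample left out (Gsr and Txnip without WT5). The other 3 lists had no call under any alternative. With 3 arrays per group, no exact permutation test of 1 gene can go below 0.1.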

Other observations

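The genes next to Selenoh were looked up after its value was seen. Of the 10 nearest protein-coding genes in the RefSeq order, 5 on each side, 7 were tested and limma called 0. The share called over all genes was 3.94%, so nothing is read from this count. Tmx2, the direct neighbour, had log2 differences of 0.18 ± 0.19 and -0.10 ± 0.30 (SE) on its 2 probe sets, and Ctnnd1 had 0.11 ± 0.18 (SE). Calcrl had 0.04 ± 0.16 (SE) on its brighter probe set, with overlapping groups. On its dimmer one it had 0.30 ± 0.15 (SE), with groups that did not overlap.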
